A study of Mus musculus with 2 samples.

Results

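The MAP kinase phosphatases of the dual-specificity (Dusp) family and the Sprouty proteins (Spry), inhibitors of MAP kinase signalling, were examined in mouse haematopoietic progenitors. The 10 genes chosen by symbol were Dusp1, Dusp2, Dusp4, Dusp5, Dusp6, Dusp7, Dusp10, Dusp16, Spry1 and Spry2, and their values come from all array probes that the platform annotation paired with these symbols alone. Of the 19057 genes on the array, 9 of the 10 were represented, by 19 of the 45281 probes. No probe was paired with Spry1 in the annotation used, so Spry1 was not analysed here.

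Total RNA of Flt3-low LSK cells (lineage-negative, Sca1-positive and c-Kit-positive) from 2 samples of mouse was hybridised to Illumina bead arrays in 1 colour. The control sample had the genotype given only as control. The other had the genotype CA/CA, taken to be that of the transgenic mice named in the series' title, which carry a constitutively active IKK2 in their haematopoietic stem cells. IKK2 is the kinase that switches on canonical NF-kB signalling. Strain, age, number of pooled mice and the promoter or Cre that drives the transgene are not stated in the labels. Each genotype had 1 array, so no difference has a replicate error or a test, and the values describe these 2 samples. In such bulk samples, fewer cells of a type and less RNA per cell cannot be told apart.

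The deposited values are linear signals with the array background left in. A floor of 92.00 signal units was set from the values, and 37.02% of control and 36.98% of CA/CA probes lay at or above it. Signals are in these array units, and differences are CA/CA minus control on the log2(signal + 16) scale, so a value of -1 is 2-fold lower in CA/CA on that scale. Of the genes that define the sorted cells, Kit had a signal of 970 on the control array and 677 for CA/CA, as means of 2 probes that differed by -0.58 and 0.21 (gene difference -0.18). Cd34, which is not among the markers named for this sort, had 287 on the control array and 153 for CA/CA on 1 probe. Both Flt3 probes lay under the floor on each array, with highest signals of 91.02 and 83.77, and Ly6a, which encodes Sca1, was not analysed here.

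MAP kinases are switched on by phosphorylation of a threonine and a tyrosine in their activation loop, and the Dusp phosphatases of this group remove both phosphates. Several of them are themselves transcribed in response to MAP kinase activity and so form a negative feedback loop. Sprouty proteins act further up, between receptor tyrosine kinases and Raf. In haematopoietic progenitors the cascade runs below cytokine receptors such as Kit and below Toll-like and cytokine receptors that also feed NF-kB.

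The promoters of the inducible genes Dusp1, Dusp2 and Dusp5 are shown because they held every motif match found among these genes. They are the 250 bases before each gene's start in the RefSeq promoter table of mouse assembly GRCm38.p6, written 5′ to 3′ on the gene's own strand, with the matches in capitals. The Dusp1 stretch is chr17:26508473-26508722 on the minus strand, the Dusp2 stretch is chr2:127335909-127336158 on the plus strand and the Dusp5 stretch is chr19:53528895-53529144 on the plus strand.
Dusp1: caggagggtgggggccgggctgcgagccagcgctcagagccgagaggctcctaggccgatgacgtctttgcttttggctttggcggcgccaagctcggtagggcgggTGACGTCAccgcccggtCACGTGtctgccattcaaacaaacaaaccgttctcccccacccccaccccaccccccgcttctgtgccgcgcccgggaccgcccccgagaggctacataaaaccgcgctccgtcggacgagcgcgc
Dusp2: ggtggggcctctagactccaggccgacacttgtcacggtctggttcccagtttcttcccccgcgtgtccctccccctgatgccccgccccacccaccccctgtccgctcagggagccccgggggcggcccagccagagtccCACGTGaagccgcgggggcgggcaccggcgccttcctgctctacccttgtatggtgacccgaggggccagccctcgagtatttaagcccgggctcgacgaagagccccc
Dusp5: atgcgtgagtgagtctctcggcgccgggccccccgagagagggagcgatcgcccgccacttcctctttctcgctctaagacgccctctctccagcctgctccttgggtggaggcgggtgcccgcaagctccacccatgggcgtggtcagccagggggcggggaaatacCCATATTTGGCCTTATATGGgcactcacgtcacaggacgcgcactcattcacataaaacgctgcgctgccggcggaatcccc

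Motifs were searched on both strands of windows from 250 bases before to 50 bases after the start, and 9 of the 10 genes had 1 window each. Dusp4 had none in the table. The cyclic AMP response element TGACGTCA, which binds CREB and ATF factors, was found in Dusp1, where it began 143 bases before the start, and in 1.79% of the 32851 windows of all genes. The E-box CACGTG was found in Dusp1 and Dusp2, at 126 and 109 bases before the start, and in 7.15% of all windows. The CArG box, the site of serum response factor, had 2 adjoining matches in Dusp5, at 82 and 72 bases before the start, against at least 1 match in 1.63% of all windows. The AP-1 motif TGANTCA, the Egr1 motif GCGTGGGCG and the kappaB motif had no match in the 9 windows, and were found in 7.81%, 0.612% and 8.46% of all windows. No capital stretches overlapped. The matches are letters in a window, and binding was not measured.

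Of the 9 genes with probes, 8 were above the floor on 1 or both arrays, and 6 of these on both. By the mean of each gene's probes, the largest differences were in Dusp2 and Dusp1, which were both lower in CA/CA. Dusp6, Dusp7 and Dusp5 were lower by less on this mean (Dusp6 was at -1.48 on its brightest probe). Dusp10 and Dusp16 differed little, but Dusp10 lay at the floor and Dusp16, with mean signals of 125 and 119, was close to background. The background left in the values narrows differences of such dim genes, so these values do not sort the genes by the kinases they act on. At least 2-fold lower were 2 of the 8 measured genes and at least 2-fold higher were 0, against 1.67% and 1.31% of all 10118 measured genes. At a threshold of 1.5-fold, 4 of the 8 were lower and 0 were higher, against 5.78% and 4.11% of all measured genes. The median difference over the 8 genes was -0.52, and over all measured genes 0.01. Dusp4 and Dusp10 were measured only through the array on which they were brighter, so the 6 genes measured on both arrays are given apart. Of these, 2 were at least 2-fold lower and 0 at least 2-fold higher, against 1.87% and 1.31% of all 8500 genes measured on both arrays. Their median was -0.63 with all 6 below 0, and 48.6% of the 8500 genes were below 0. The Dusp6 and Dusp16 means still hold 1 probe each that was above the floor in the control only. Dusp16 was at 0.09 on its brightest probe, so its sign depended on the probe taken.

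**Figure D1:**
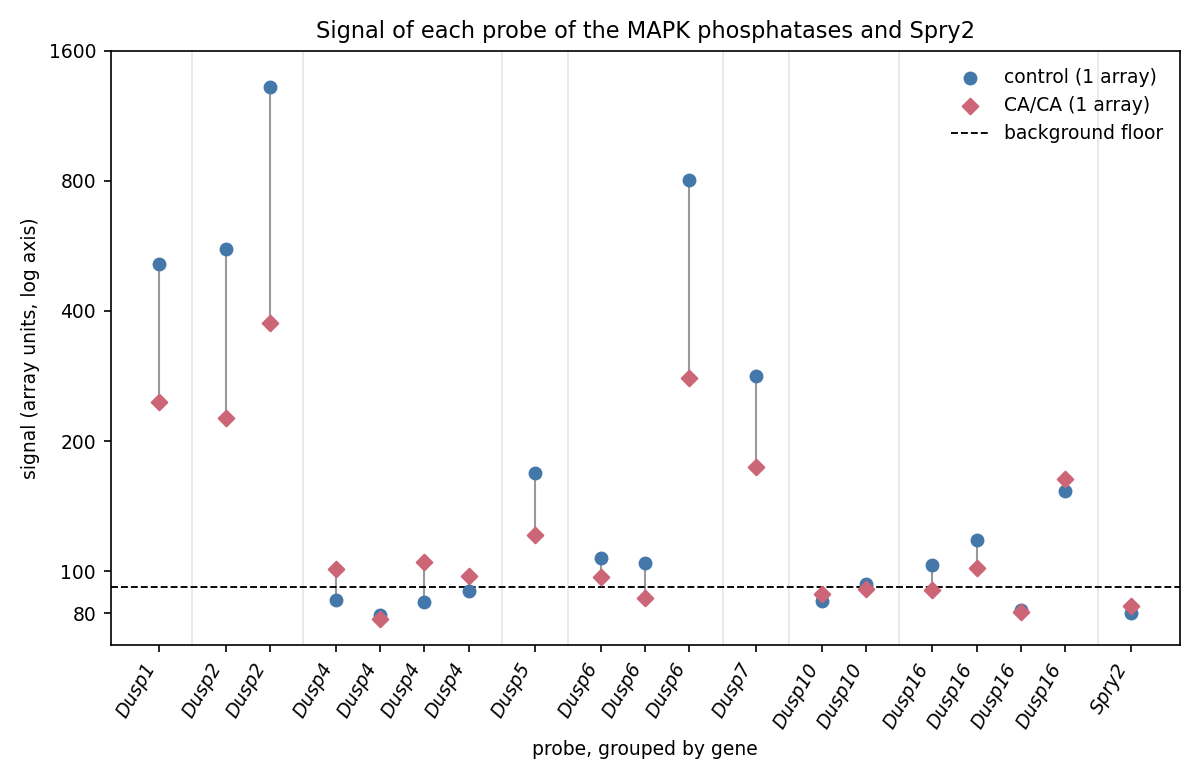
Signal of each of the 19 probes (log axis, array units) on the control array (circles) and on that of CA/CA (diamonds), grouped by gene, with the background floor of 92.00 as a dashed line. All probes of Dusp1, Dusp2, Dusp5, Dusp6 and Dusp7 are lower in CA/CA, with 1 Dusp6 probe, at 805 and 279, far apart from the other 2, and the Dusp4, Dusp10 and Spry2 probes lie near the floor.

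Dusp1 encodes a nuclear phosphatase of p38, JNK and ERK and is a classic immediate early gene. Its 1 probe had a signal of 515 on the control array and 247 for CA/CA. The difference of -1.01 lay at the 2-fold line, and 1.79% of the genes measured on both arrays were at least as low. With an offset of 50 in place of 16 it was -0.93, short of 2-fold, and with the background subtracted it was -1.31.

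Dusp2 encodes a nuclear phosphatase first found in activated haematopoietic cells. Its 2 probes had signals of 555 and 1317 on the control array and of 227 and 375 for CA/CA. Both probes were lower in CA/CA, with differences of -1.24 and -1.77 and a gene difference of -1.50. Of the genes measured on both arrays, 0.494% were at least as low. This difference remained past 2-fold in all 9 alternative settings of the scale, floor and probe summary, from -1.41 to -1.81.

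Dusp6 encodes the cytoplasmic ERK phosphatase that is a standard readout of ERK activity. Its probe ILMN_2925711 had a signal of 805 on the control array and 279 for CA/CA, a difference of -1.48. The other 2 probes were dim and showed little of this. ILMN_1248537 was at 107 on the control array and 96.80 for CA/CA, a difference of -0.13, and ILMN_2701321 was at 104 on the control array and under the floor on the other, at least 1.11-fold lower on the log2(signal + 16) scale. The mean over all 3 probes was -0.61 and their median -0.23, so whether Dusp6 passed 2-fold depended on which probe was taken. Which transcripts each probe binds was not tested.

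Dusp7, a cytoplasmic ERK phosphatase closely related to Dusp6, had a signal of 283 on the control array and 174 for CA/CA on its 1 probe, a difference of -0.65. Of the genes measured on both arrays, 5.16% were at least as low. Dusp5, a nuclear phosphatase specific for ERK, had a signal of 169 on the control array and 121 for CA/CA on its 1 probe, a difference of -0.43, and 10.3% of genes were at least as low. Both were within 2-fold. With the background mode subtracted from each array the differences were -1.0 for Dusp7 and -0.90 for Dusp5.

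Dusp4, a nuclear and inducible phosphatase of ERK and JNK, was the 1 measured gene with a higher mean in CA/CA. Of its 4 probes, 3 were below the floor in the control, at signals of 85.74, 84.79 and 90.01, and just above it in CA/CA, at 101, 105 and 97.69. These 3 probes were at least 1.09-fold, 1.12-fold and 1.05-fold higher in CA/CA. The fourth was below the floor on both arrays, at 79.08 and 77.57. Dusp4 signal was thus close to background in both samples, and its direction opposite to that of Dusp1 and Dusp2 rests on values near the floor.

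Dusp16, a phosphatase of JNK and p38 that shuttles between nucleus and cytoplasm, had 3 of 4 probes above the floor on at least 1 array, with a difference of -0.09. The annotation splits the 4 probes between 2 transcripts. The 2 probes of one transcript were at 103 and 118 on the control array and at 90.51 and 102 for CA/CA, the value of 90.51 being below the floor. Of the 2 probes of the other transcript, one was at 153 on the control array and 163 for CA/CA, a difference of 0.09, and its partner was below the floor on both arrays. The direction therefore differed between probes, by amounts close to the spread between probes of 1 gene, which had an SD of 0.24 over 3861 genes on the log2 scale.

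Dusp10, another phosphatase of p38 and JNK, had 1 of 2 probes at the floor, with signals of 93.41 on the control array and 90.97 for CA/CA, at least 1.01-fold lower. The other Dusp10 probe was at 85.50 and 88.74. Spry2, an inhibitor of signalling from receptor tyrosine kinases to Ras and Raf, had 1 probe, which was below the floor on both arrays at 79.89 on the control array and 83.21 for CA/CA. No difference can be given for Spry2, and its signal on these arrays does not show that the transcript is absent. No measured value of the Sprouty genes therefore entered the counts.

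**Figure D2:**
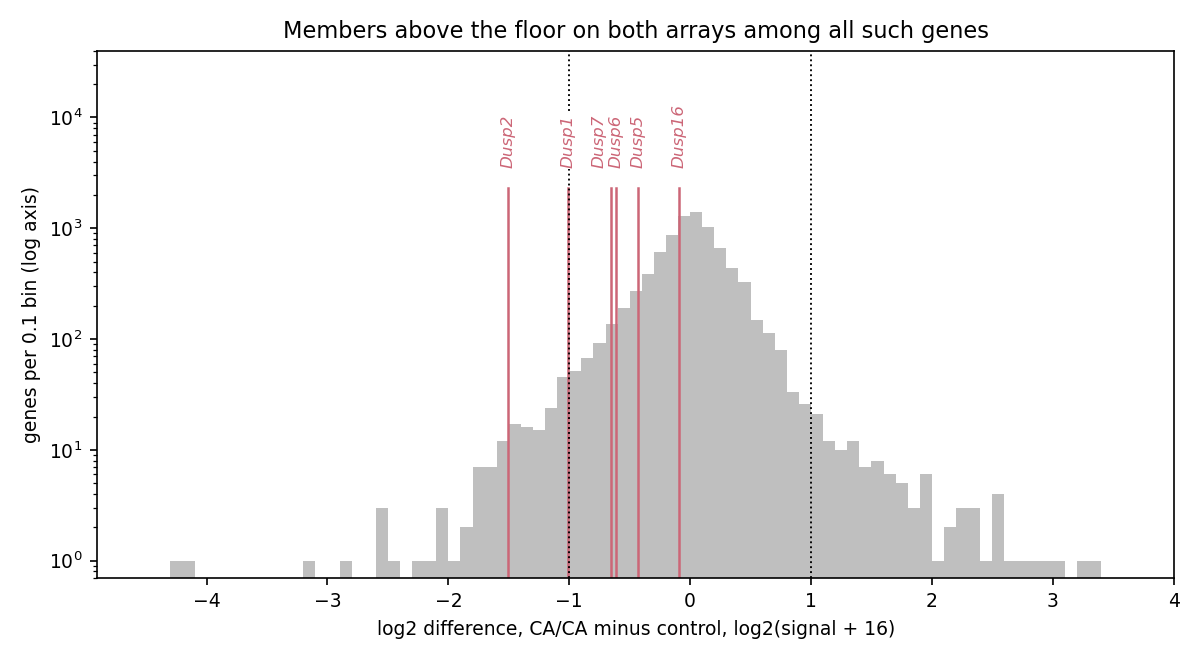
Log2 difference, CA/CA minus control, of the 8500 genes above the floor on both arrays (grey bars, genes per bin, log axis), with the 6 members above the floor on both arrays as red lines and the 2-fold differences as dotted lines. Dusp2 lies at -1.50 and Dusp1 at -1.01, while Dusp16 at -0.09 lies in the centre of the distribution.

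Across probes, 9 of the 19 were above the floor on both arrays, and 8 of these 9 were lower in CA/CA. At least 2-fold lower were 4 of the 9, 2 of them from Dusp2 and 1 each from Dusp1 and Dusp6, against 2.12% of the 12857 named probes above the floor on both arrays. Probes of 1 gene share its RNA and are not independent of each other. The control signals of these 4 ran from 515 to 1317. The 4 member probes with control signals of 107 to 169 that were above the floor on both arrays differed from -0.43 to 0.09. The background left in the values narrows differences of such dim probes.

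The MAP kinase genes themselves were all within 2-fold where measured. Of all measured genes, 1.67% were at least 2-fold lower and 1.31% at least 2-fold higher. Mapk14, which encodes p38 alpha, had a signal of 1190 on the control array and 805 for CA/CA, a difference of -0.55. Mapk9, encoding a JNK kinase, was at 256 and 283, a difference of 0.20, and Mapk11 and Mapk13, encoding other p38 kinases, were at -0.23 and -0.16. The median over 9 measured MAP kinase genes was -0.02, and 0 of the 9 were past 2-fold in either direction.

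Above them, the 5 measured MAP kinase kinase genes had a median of 0.00 and 0 past 2-fold. Map2k2, which encodes an ERK-activating kinase, was at 0.26 and Map2k4, encoding a JNK-activating kinase, at 0.24. Of 10 measured MAP kinase kinase kinase genes, 1 was at least 2-fold lower and 0 at least 2-fold higher. The shares of all measured genes were 1.67% and 1.31%. The median over the 10 was -0.14. The 1 gene at least 2-fold lower was Map3k3, encoding a kinase upstream of ERK5 and p38. It had a signal of 728 on the control array and 284 for CA/CA on its 1 probe, a difference of -1.31. With the background mode subtracted 2 of the 10 were at least 2-fold lower and 1 at least 2-fold higher. The shares of all measured genes in that setting were 6.40% and 4.01%. Map3k7, which encodes the TAK1 kinase that also activates IKK, was at 91.71 and 121, a difference of 0.35 that starts from a control mean just under the floor. Map3k1, an activator of the JNK pathway, was at 540 and 390, with its 2 probes at -0.58 and -0.12, and Map3k11, another kinase upstream of JNK, was at -0.26.

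Among 21 measured Ras and adaptor genes, 0 were past 2-fold and the median was -0.06. With the background mode subtracted, after normexp background correction or with the brightest probe, 1 was at least 2-fold lower. In these settings 6.40%, 5.36% and 2.39% of all measured genes were at least 2-fold lower. Rasa3, a GTPase-activating protein that limits Ras-family signalling, was at 521 on the control array and 249 for CA/CA, with its 2 probes at -0.28 and -1.16. Rasgrp4, a Ras exchange factor of myeloid cells, was at 1244 and 752, a difference of -0.72. The adaptor Gab1 was at -0.56 and Rasa1, another Ras inactivator, at -0.49. Of 6 measured kinases that act downstream of MAP kinases, 0 were past 2-fold and the median was -0.07. Mapkapk2, the p38-activated kinase that stabilises inflammatory mRNAs, was at 904 on the control array and 1447 for CA/CA, a difference of 0.67.

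The other phosphatases and inhibitors of the pathway held no gene past 2-fold on this scale. With the background mode subtracted 3 of the dual-specificity genes were at least 2-fold lower, and after normexp background correction 2 were. In these settings 6.40% and 5.36% of all measured genes were at least 2-fold lower. Of 21 other dual-specificity and related phosphatase genes, 12 were measured, with a median of -0.09. Dusp23, Dusp3, which acts on ERK and JNK, and Ssh3, a cofilin phosphatase, were lower in CA/CA by amounts close to that of Dusp7, at -0.69, -0.66 and -0.66. Dusp19 was higher, at 180 on the control array and 228 for CA/CA. Among 7 measured phosphatases of other families that act on MAP kinases, the median was 0.07, with Ppm1d at -0.32 and Ppm1b at 0.19. Of 12 other Sprouty, Spred and receptor tyrosine kinase attenuators, 8 were measured with a median of -0.10. Spred1, a Sprouty-related inhibitor of Raf activation, was at 289 and 236, a difference of -0.27, and Ptpn6, a haematopoietic tyrosine phosphatase, was at -0.32. Spry4, chosen after its values were seen, was close to background, at 86.48 on the control array and 94.79 for CA/CA.

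**Figure D3:**
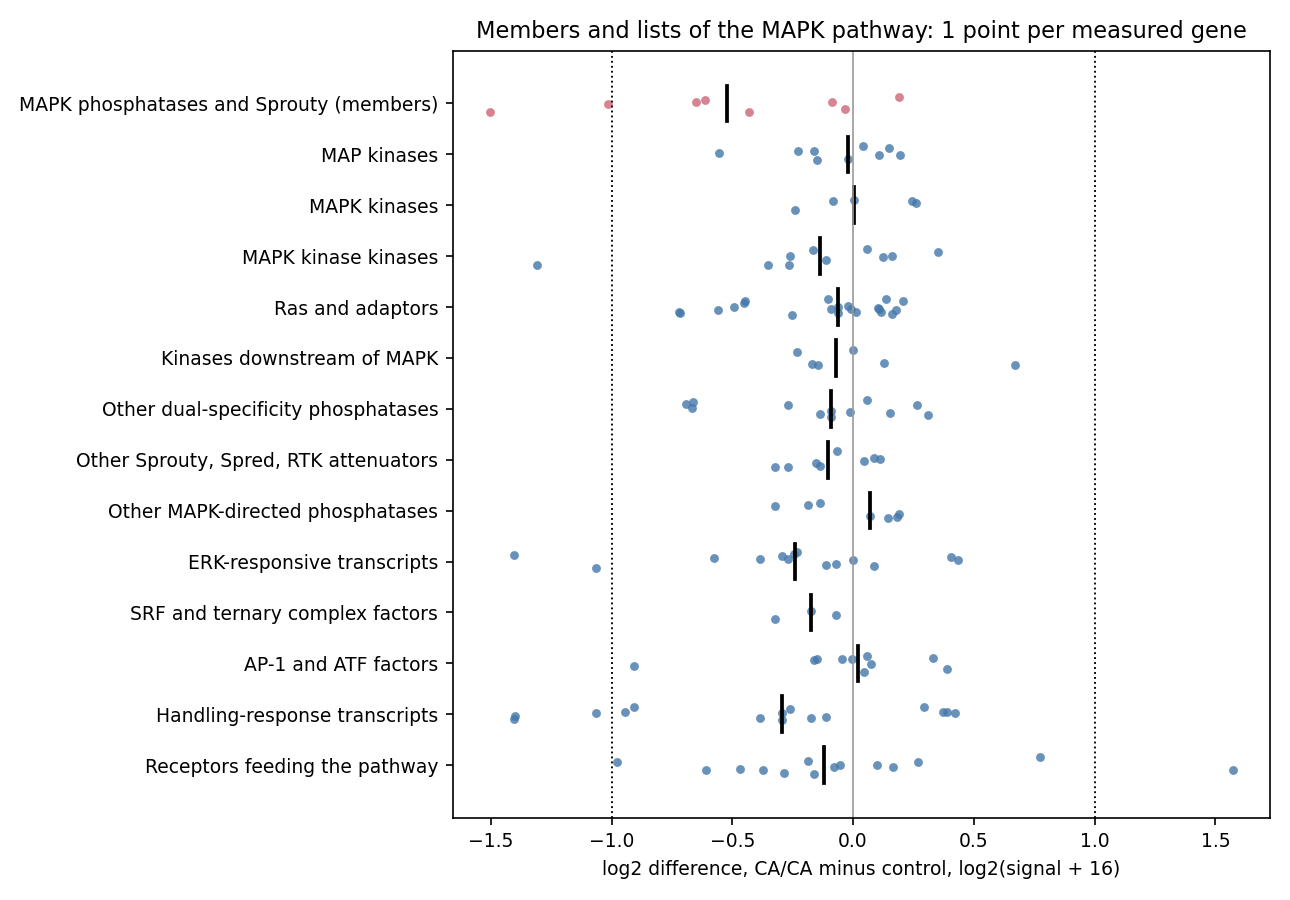
Log2 difference, CA/CA minus control, of each measured gene (1 point per gene) in the Dusp and Sprouty group (red) and in 13 lists (blue). The lists are of the MAP kinase pathway and, in 1 case, of transcripts that respond to cell handling. The median of each is a black bar, and 2-fold differences are dotted lines. The median of the Dusp and Sprouty group is -0.52, and those of the lists run from -0.29 (cell handling) to 0.07.

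Transcripts that ERK activity is known to induce were on both sides of 0. Fos, a subunit of AP-1, had a signal of 429 on the control array and 152 for CA/CA, a difference of -1.41, and Egr1, a zinc-finger factor, had 433 and 199, a difference of -1.06. These were the 2 of 14 measured genes at least 2-fold lower, and 0 were at least 2-fold higher. The shares of all measured genes were 1.67% and 1.31%. The count of the 14 at least 2-fold lower was 1 with an offset of 50, 4 with the background mode subtracted and 3 after normexp. In these settings 1.16%, 6.40% and 5.36% of all measured genes were at least 2-fold lower. Over the 14 genes the median was -0.24, with 10 of the 14 below 0, against 49.1% of all measured genes. Only 11 of the 14 passed the floor on each array. Ier2 and Phlda1 passed it in the control only and Spred2 in CA/CA only, so the floor set their directions. Fosl2 was at -0.58, while Myc, at 250 on the control array and 344 for CA/CA, was at 0.44. Ccnd1 and Etv5, chosen after their values were seen, were at 0.41 and 0.00.

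A list of transcripts that respond to cell handling, which holds Fos and Egr1 as well, had 15 measured genes. Of these, 3 were at least 2-fold lower and 0 at least 2-fold higher, against 1.67% and 1.31% of all measured genes. The median over the list was -0.29, with 11 of 15 below 0, against 49.1% of all measured genes. Only 13 of the 15 passed the floor on each array. Ier2 and Klf4 passed it in the control only, so the floor set their directions. The count of genes at least 2-fold lower was 5 with no offset, 6 with the background mode subtracted and 5 after normexp. Of all measured genes 2.04%, 6.40% and 5.36% were at least 2-fold lower in these settings. With the mode subtracted 1 gene of the list was also at least 2-fold higher, against 4.01% of all measured genes. Zfp36, which encodes an mRNA-destabilising protein, was at 664 on the control array and 242 for CA/CA, a difference of -1.40, and the transcription factor gene Klf6 was at 317 and 157, a difference of -0.94. Members of the list in the other direction were Socs3 at 0.42, Junb at 0.39, Hsp90aa1 at 0.37 and Hspa8 at 0.29, chosen after their values were seen. Atf3, Nr4a1, Btg2, Hspa1a and Hspa1b were below the floor on both arrays. The part of cell handling in the Dusp1 and Dusp2 values was not tested.

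**Figure D4:**
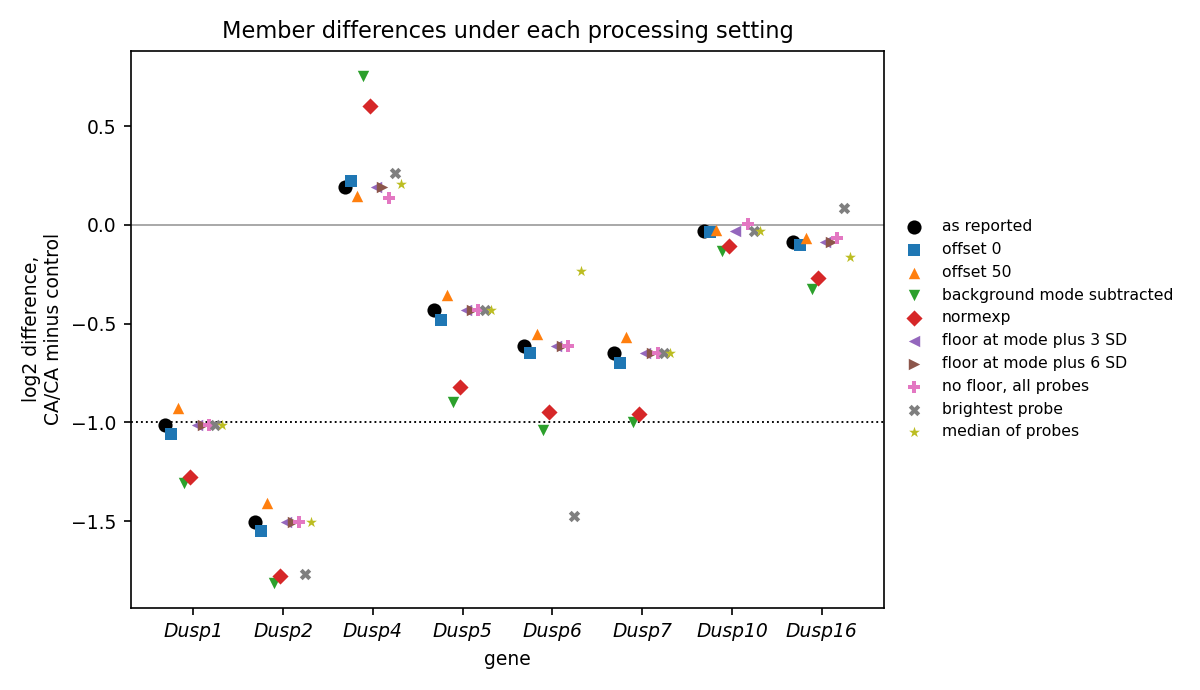
Log2 difference, CA/CA minus control, of the 8 measured genes under the reported setting (black circles) and 9 alternatives of offset, background, floor and probe summary (other symbols), with the 2-fold line dotted. Dusp2 stays below -1 in each, Dusp1 lies between -1.31 and -0.93, and Dusp6 runs from -1.48 to -0.23 with the probe taken.

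Among transcription factors that MAP kinases activate, the serum response factor and ternary complex genes had 3 measured members within 2-fold, with a median of -0.17 and Elk4 at -0.32. The AP-1 and ATF list had 10 measured members, 0 past 2-fold and a median of 0.02. With no offset, with the background mode subtracted or after normexp 1 of its genes was at least 2-fold lower. The shares of all measured genes in these settings were 2.04%, 6.40% and 5.36%. With the mode subtracted 1 of its genes was at least 2-fold higher, against 4.01% of all measured genes. In this list, Jun was at 199 on the control array and 98.60 for CA/CA, a difference of -0.91, and Junb was higher, at 312 and 413. Batf2, close to background in the control, was at 93.80 and 122, and Jund was at -0.16.

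Markers of other cell types differed between the 2 samples in the same comparison. Beside the counts below, 1.67% of all measured genes were at least 2-fold lower, 1.31% at least 2-fold higher and 49.1% below 0. A marker above the floor on 1 array only had its direction set by the floor, so its direction is no support. Above the floor on both arrays were 6 of 8 measured B cell progenitor, 11 of 11 granulocyte and monocyte, 10 of 11 erythroid, 4 of 6 megakaryocyte, 5 of 8 mature T and NK cell and 1 of 6 dendritic cell and macrophage markers. Of the B cell progenitor markers all 8 measured, and so all 6 on both arrays, were lower in CA/CA. At least 2-fold lower were 6 of the 8. These counts hold Blnk, above the floor in the control only and at least 3.18-fold lower. Rag1, also above the floor in the control only, was at least 1.51-fold lower. The signals of the list summed to 10168 on the control array and 1200 for CA/CA, with Pax5 below the floor on both arrays. Of 11 measured granulocyte and monocyte markers, 9 were lower and 5 at least 2-fold lower, with sums of 61339 and 33803 and Itgam below the floor on both arrays. Of 11 measured erythroid markers, 10 were higher and 9 at least 2-fold higher, with sums of 4114 and 15016 and Rhd below the floor. Both counts hold Ermap, above the floor in CA/CA only and at least 4.64-fold higher. Megakaryocyte marker signals summed to 972 and 627, with 1 marker at least 2-fold lower and Gp6 below the floor. Of 8 measured mature T and NK cell markers, 6 were higher and 2 lower, with a median of 0.30. Of the higher ones, Cd3e, Cd4 and Klrd1 were above the floor in CA/CA only. Nkg7 was the 1 at least 2-fold lower. It gave 4190 and 1055 of the list's sums of 4918 and 1958, and Cd8a, Cd5, Gzmb and Ncr1 were below the floor. Dendritic cell and macrophage markers had sums of 967 and 788, with Itgax and Cd209a below the floor. The part of these cells in the Dusp differences was not tested.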

How the data were processed

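RNA of 2 mouse samples, 1 control and 1 CA/CA, was profiled on 1-colour Illumina bead arrays, and the groups come from the genotype labels. The values are the authors' deposited intensity values of 45281 probes, from the value table of the series. They are linear, run from 71.85 to 17158.7 and have the same median of 86.15 on both arrays. The 2 sorted columns are nearly the same (largest log2 gap 0.0022), which quantile normalization would give. The submitters' processing notes name BeadStudio, and its settings are not stated there. A further table of non-normalized signals has 4 value columns whose headings match no sample label, and these were not used.

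The background mode, 81.72, was the middle of the shortest interval with 25% of all values, and the floor was this mode plus 4 SD of the values below it (SD 2.57). The platform annotation paired 34885 probes with 1 gene symbol, 18 with several and 10378 with none. Probes at or above the floor on at least 1 array were averaged per gene as differences of log2(signal + 16), and signals as plain means. A gene or probe above the floor on 1 array has an at-least fold, taken over the higher of the floor and the dim signal. With 1 array per group there was no test, and precision is limited by the number of arrays.

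The genes, 13 pathway lists (the cell handling list among them) and 7 marker lists were chosen with earlier results of these data known. Of each pathway list the text names genes among the 4 measured ones with the largest difference and any past 2-fold, and lists share genes. Steps were tested on simulated data. The genes changed there were brighter in the control than Dusp4, Dusp5, Dusp10 and Dusp16, so such dim genes were not covered. A planned comparison of protein sequences was not made. Python 3.11.15, numpy 2.4.6, pandas 2.3.3, matplotlib 3.10.9 and, for normexp, limma 3.58.1 in R 4.3.3 were used.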

Additional observations from a re-analysis of the deposited data

How the results depend on the processing

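The signs of the Dusp1, Dusp2, Dusp4, Dusp5, Dusp6 and Dusp7 differences held, as plotted, in all 9 alternatives of scale, floor and probe summary. These settings could hardly change them, so the held signs are no support. Dusp1, Dusp5 and Dusp7 have 1 probe each, and all probes of Dusp2 and Dusp6 were lower in CA/CA. The Dusp4 probes that passed the floor did so in CA/CA only. Dusp16 was at 0.09 with the brightest probe and Dusp10 at 0.01 with all probes kept. Genes at least 2-fold lower numbered 1 with an offset of 50, where Dusp1 was at -0.93, and 4 with the background mode subtracted (signals below 1 unit set to 1), where Dusp6 and Dusp7 were at -1.04 and -1.0. They numbered 3 with the brightest probe, where Dusp6 was at -1.48. They numbered 4 at a 1.5-fold and 0 at a 3-fold threshold. The median over the group was -0.95 with the mode subtracted and -0.88 after normexp, settings that widen differences of dim genes, -0.43 with all probes kept and -0.33 with the median of probes. The share of all measured genes at least 2-fold lower was 6.40% with the mode subtracted and 5.36% after normexp, and at least 2-fold higher 4.01% and 3.16%. The shares lower and higher were 1.16% and 1.08% with an offset of 50, and 2.39% and 1.54% with the brightest probe. With all probes kept the shares were 0.703% and 0.598%, at 1.5-fold 5.78% and 4.11%, and at 3-fold 0.356% and 0.553%. The serum response factor list had a median of -0.45 with the mode subtracted and -0.43 after normexp, and the handling list -0.64 with the mode subtracted. Floors of 3 and 6 SD, no offset and the median of probes moved no count of the group past 2-fold. No paired analysis was possible because each genotype had 1 array, and for the same reason no replicate could be left out. The alternative of the non-normalized table was not run because its columns match no sample. Signal near background limits what can be said of Dusp4, Dusp10 and Spry2.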

Other observations

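Receptors that feed the MAP kinase pathway differed in both directions. Epor, the erythropoietin receptor, had signals of 116 (control) and 377 (CA/CA), a difference of 1.57, and was the 1 of 14 measured receptors at least 2-fold higher, with 0 at least 2-fold lower. Receptors at least 2-fold lower numbered 1 with no offset and 2 with the background mode subtracted or after normexp. The shares of all measured genes in these settings were 2.04%, 6.40% and 5.36%. Both background settings gave 2 receptors at least 2-fold higher, against 4.01% and 3.16% of all measured genes. Tlr2, a Toll-like receptor, was at 215 and 379, a difference of 0.77. Csf2ra and Il3ra, the specific chains of the GM-CSF and interleukin-3 receptors, were lower in CA/CA, with control signals of 625 and 341, CA/CA signals of 309 and 218 and differences of -0.98 and -0.61. The median over the 14 receptors was -0.12, with 9 below 0, against 49.1% of all measured genes. Only 13 of the 14 passed the floor on each array. Pdgfrb passed it in the control only, so the floor set its direction.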
